A study of Sus scrofa with 8 samples.

Results

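Retinal ganglion cell (RGC) nuclei were taken from single-nucleus RNA sequencing of 8 minipig retinas by a gate on unique molecular identifiers (UMIs, counted RNA molecules) per droplet barcode. The members were chosen by measured values, their own UMIs of these genes. A barcode was a member when it held at least 5000 UMIs, at least 2 UMIs of SLC17A6 (the vesicular glutamate transporter VGLUT2), at least 1 of RBPMS (an RNA-binding protein of RGCs), at least 5 over SLC17A6, RBPMS, POU4F1, POU4F2 and NEFL together, 0 of the horizontal cell factor LHX1 and at most 2 over the ON bipolar genes TRPM1 and GRM6. The gate kept 1109 of 388491 barcodes (0.285%), or 1.87% of the 59435 barcodes with at least 5000 UMIs. Each retina gave 105 to 195 members with a median of 19926 to 24371 UMIs each, and the members' UMIs summed to between 2334780 and 4151383 per retina.

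RGCs are the output neurons of the retina: they collect signals from bipolar and amacrine cells and send their axons through the optic nerve to the brain. They lie next to the vitreous, so that vector injected there meets them early. Cells that sense viral nucleic acid release type I interferon, whose receptor acts through the transcription factors STAT2 and IRF9, among others, on a large set of antiviral genes, while interferon gamma induces the factor IRF1 and raises genes of antigen presentation.

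All animals were female Yucatan minipigs of 3 to 5 months, and all, vehicle controls included, received intravitreal Vitrase (hyaluronidase) in both eyes 2 weeks before day 0 and weekly systemic methylprednisolone. On day 0 both eyes received AAV2.7m8/CAG-GFP at 5e11 vector genomes per eye, in which the CAG promoter drives the green fluorescent protein in many cell types, or vehicle. The AAV week 2 group was both eyes of animal 7221 and the vehicle week 2 group both eyes of animal 7222, each killed on day 15. The AAV week 4 group was the left eye (OS) of animals 7248 and 7249, and the vehicle week 4 group the left eye of animals 7250 and 7251. The animals of the week 4 groups were killed on day 24 or 28, and the labels do not say which animal on which day. Whole globes were frozen and nuclei were sorted on DAPI, so the libraries hold mainly nuclear RNA. The batch label names the same 4 groups, so batch and group cannot be told apart. Week 2 has 1 animal per arm and is given as values with no test. At week 4, 2 animals stood against 2, and an exact permutation test over animals cannot give a p below 0.33.

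Across the 32 libraries (4 lanes per retina) library totals per retina ran from 121544835 to 173614051 UMIs. No member barcode was a member in a second library. Of the 1109 member barcodes, 17 also held at least 5000 UMIs in another library. At any depth, 108 (9.74%) were present in another library. Of all 368982 distinct barcodes, 5.11% were present in 2 or more libraries. That share disregards how many libraries hold a barcode, whereas members were chosen within each library. These shares thus have different bases and cannot show whether members were shared more often than other barcodes.

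The genes that the gate used describe the members and are not a finding. SLC17A6 and RBPMS had a median of 6 and 21 UMIs per member. NEFL, the light neurofilament subunit, was detected in 78.7% of members, but the RGC transcription factors POU4F2 and POU4F1 only in 16.7% and 3.97%, and the range of POU4F2 over retinas was 13.4% to 22.0%. At the edge, 116 members had exactly 2 SLC17A6 UMIs (median 12 RBPMS UMIs, marker sum 15), whereas 528 barcodes met all criteria but that one: 104 of these had 1 SLC17A6 UMI and 424 had 0, with a median of 6 RBPMS UMIs and a marker sum of 7. A further 87 barcodes were kept out by TRPM1 and GRM6 alone, 6 by depth, 6 by the marker sum, 3 by RBPMS and 0 by LHX1.

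Of 19 listed genes of RGC identity outside the gate, 15 had a higher level in CPM (UMIs of the gene per 1e6 UMIs summed over the nuclei) in the members than in both amacrine and ON bipolar nuclei. The other 4 did not: ISL1 stood at 28.04 CPM in members against 186 in ON bipolar nuclei, SIX6 at 9.49 against 69.0, and SOX4 and SOX11 were low in all 3 classes. ATOH7, counted among the 15, had 1 UMI in all members, so its place there rests on that UMI. EBF1, a factor of the early B-cell factor family, was detected in 99.7% of members at 1458 CPM, against 46.0 in amacrine nuclei (14571 nuclei with at least 3 UMIs of GAD1 and GAD2 and 0 of SLC17A6) and 101 in ON bipolar nuclei (10879 nuclei with at least 3 UMIs of TRPM1 and GRM6 and 0 of GAD1 and GAD2). ELAVL4, a neuronal RNA-binding protein, stood at 397 CPM against 67.1 and 6.61. RBPMS2, the paralogue of RBPMS, stood at 50.8 CPM against 0.698 and 1.18, and gamma-synuclein (SNCG) at 34.01 against 3.75 and 3.35. POU4F3 and ISL2, factors of RGC subsets, were seen in 5.05% and 12.1% of members. Other cell types were not absent: 126 members also held at least 3 UMIs of amacrine, immune, Müller or cone genes, of which 80 met the amacrine limit, and no doublet caller was run.

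The promoters of some interferon-stimulated genes (ISGs) hold the interferon-stimulated response element, which the complex that holds STAT2 and IRF9 binds. The windows below run from 250 bases before to 50 after the RefSeq gene start (assembly Sscrofa11.1) and belong to genes with 0 UMIs in both vehicle week 4 retinas and a higher level after AAV. All such genes named here whose window held a match are shown, each 5′ to 3′ on the strand of the gene. Capitals mark GAAANNGAAA or its reverse complement TTTCNNTTTC, and overlapping matches run together.
IFIH1, chr15:68985096-68985395 (- strand): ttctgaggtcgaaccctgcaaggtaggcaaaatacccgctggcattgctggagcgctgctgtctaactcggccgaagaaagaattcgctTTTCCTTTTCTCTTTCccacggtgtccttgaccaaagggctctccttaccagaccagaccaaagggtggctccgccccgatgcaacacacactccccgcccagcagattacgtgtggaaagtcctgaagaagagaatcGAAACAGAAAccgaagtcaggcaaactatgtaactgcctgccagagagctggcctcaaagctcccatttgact
ISG15, chr6:63362951-63363250 (+ strand): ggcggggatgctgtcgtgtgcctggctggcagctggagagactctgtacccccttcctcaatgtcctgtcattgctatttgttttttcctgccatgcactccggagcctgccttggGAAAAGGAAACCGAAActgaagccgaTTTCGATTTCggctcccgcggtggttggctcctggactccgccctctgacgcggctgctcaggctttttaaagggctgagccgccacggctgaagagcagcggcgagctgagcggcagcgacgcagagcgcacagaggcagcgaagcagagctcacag
BST2, chr2:60305056-60305355 (+ strand): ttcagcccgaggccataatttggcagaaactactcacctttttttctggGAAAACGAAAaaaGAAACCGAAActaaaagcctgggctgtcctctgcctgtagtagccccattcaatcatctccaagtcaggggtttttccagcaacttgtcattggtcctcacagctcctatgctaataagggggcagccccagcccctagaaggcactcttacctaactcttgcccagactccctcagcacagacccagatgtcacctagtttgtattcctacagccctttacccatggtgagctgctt
ZBP1, chr17:57986068-57986367 (- strand): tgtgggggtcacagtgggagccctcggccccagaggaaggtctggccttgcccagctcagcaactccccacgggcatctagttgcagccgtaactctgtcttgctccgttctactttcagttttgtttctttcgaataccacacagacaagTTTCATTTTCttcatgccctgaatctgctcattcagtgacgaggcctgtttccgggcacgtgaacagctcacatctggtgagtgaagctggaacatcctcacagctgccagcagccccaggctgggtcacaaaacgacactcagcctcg
UBA7, chr13:32341251-32341550 (- strand): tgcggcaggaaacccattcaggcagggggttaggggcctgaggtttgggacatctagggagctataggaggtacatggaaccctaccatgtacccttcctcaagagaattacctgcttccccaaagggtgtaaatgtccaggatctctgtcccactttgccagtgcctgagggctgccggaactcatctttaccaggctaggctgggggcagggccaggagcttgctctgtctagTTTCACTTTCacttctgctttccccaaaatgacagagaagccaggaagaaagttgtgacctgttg
CXCL10, chr8:71695899-71696198 (- strand): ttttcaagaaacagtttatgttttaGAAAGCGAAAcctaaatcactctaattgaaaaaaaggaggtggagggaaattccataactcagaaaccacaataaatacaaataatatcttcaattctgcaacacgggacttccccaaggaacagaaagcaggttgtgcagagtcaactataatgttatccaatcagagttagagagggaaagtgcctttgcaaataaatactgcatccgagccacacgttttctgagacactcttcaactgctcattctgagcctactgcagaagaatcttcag
These windows held 3 matches for IFIH1, 3 for ISG15, 2 for BST2 and 1 each for ZBP1, UBA7 and CXCL10. Among all 19506 promoter windows of this length 694 (3.56%) held the letters, and among the 9484 of genes tested at week 4 272 (2.87%) did. Of the genes with a symbol that were higher at week 4, 28 of the 140 with a window held a match (20%), and of the 37 ISGs among them 18 did (48.6%). The 44 windows of genes that were lower held 0. DDX60, MX2, PSMB8, ATF3 and MTNR1B, also at 0 in both vehicle retinas, had no match in the window. A match describes letters and not a bound site.

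EGFP, the transgene, was first checked against the labels. It was detected in 60.7% (exact 95% interval 52.9 to 68.1) and 81.7% (73.6 to 88.1) of RGC nuclei of the AAV week 2 left and right eye, and in 43.9% (35.0 to 53.1) and 52.03% (42.8 to 61.1) of those of animals 7248 and 7249 at week 4. None of the vehicle members held an EGFP UMI, which allows a share of up to 1.54% to 2.86% by retina, and whole vehicle libraries held 0 to 3 EGFP UMIs. The 4 AAV retinas therefore matched their labels, and the week 2 right eye was the highest.

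**Figure D1:**
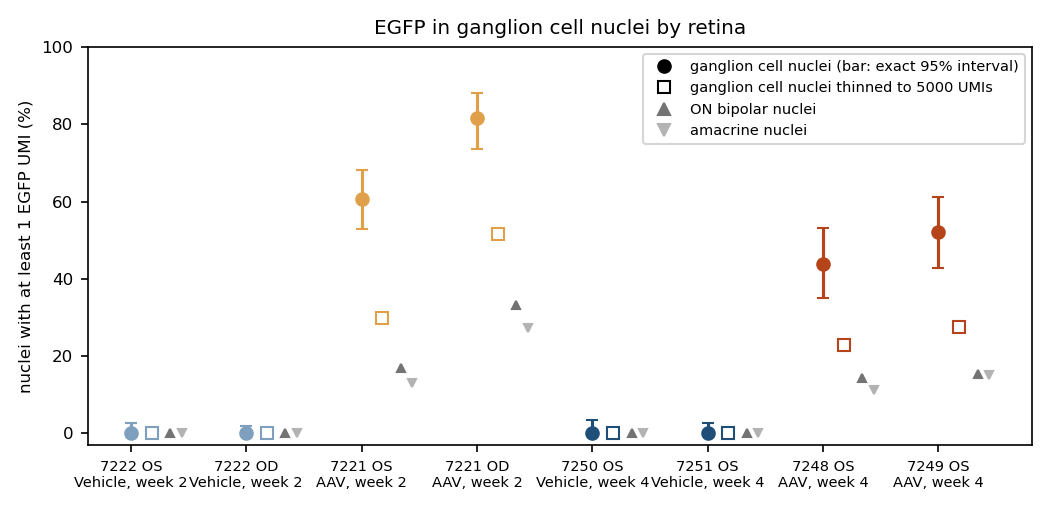
Percent of nuclei with at least 1 EGFP UMI in each of the 8 retinas. Filled circles are ganglion cell nuclei with exact 95% intervals (counting error only), squares the same nuclei thinned to 5000 UMIs, and triangles ON bipolar and amacrine nuclei at their own depth. Shares of ganglion cell nuclei run from 43.9% to 81.7% in AAV retinas and are 0 in vehicle retinas.

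EGFP shares depend on depth, and RGC nuclei were the deeper ones. Amacrine nuclei of AAV retinas, with a median of 7554 to 8275 UMIs, held EGFP in 11.3% to 27.2% of cases, and ON bipolar nuclei in 14.2% to 33.3%. Thinned to 5000 UMIs per nucleus, 29.8% and 51.7% of RGC nuclei at week 2 and 22.8% and 27.6% at week 4 still held EGFP. As a level, which depth does not set, summed RGC nuclei held 88.3 and 221 CPM of EGFP at week 2 and 122 and 115 at week 4, above the amacrine nuclei (17.0 to 48.0 CPM) and ON bipolar nuclei (37.0 to 100.03 CPM) of the same retinas. The most EGFP UMIs in 1 member were 61, in animal 7248. RGC nuclei held 5.68% to 7.74% of each AAV library's EGFP UMIs.

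RGC nuclei made up 1.69% and 1.63% of barcodes with at least 5000 UMIs in the AAV week 4 animals, against 2.17% and 3.18% in the vehicle animals. The means were 1.66% ± 0.0407 and 2.68% ± 0.715 (SD, n = 2 each), a difference of -1.02 points with an exact two-sided permutation p of 0.33, the smallest this design allows. The denominator moved with the group: 7269 and 7525 barcodes passed 5000 UMIs in AAV retinas and 4830 and 4208 in vehicle retinas. As a share of all barcodes the means were 0.239% and 0.251% (exact permutation p = 1). At week 2 the 2 eyes of the AAV animal gave 2.23% and 1.07%, on either side of 1 vehicle eye (1.70%) and below the other (2.28%). A loss or gain of RGC nuclei was not detectable with these numbers.

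At week 4, edgeR's quasi-likelihood test on UMIs summed over RGC nuclei per retina found 196 of 13325 genes higher after AAV (1.47%) and 60 lower (0.45%) at a Benjamini-Hochberg adjusted p under 0.05. The genes with higher levels were led by the interferon response. Interferon-stimulated genes, interferon signalling genes and genes of antigen presentation gave 38, 8 and 14 of the higher calls, while the lists of p53 targets, trophic signalling, axon cytoskeleton, neurotransmitter receptors and RGC type genes had 0 calls. The lower calls held 9 of 11 tested mitochondrial genes. Summed nuclei of a retina cannot separate a change in each nucleus from a change in which RGC types were sampled. Called named genes were mostly chosen among genes whose 4 retinas did not overlap between groups. Their direction could thus hardly turn when 1 animal was left out, and its being kept is no support. Leaving out 1 vehicle animal also takes away degrees of freedom, and the cause of the lost calls was not tested: without animal 7250 there were 37 higher and 6 lower, and without 7251 there were 0 of either, with 1052 genes at an unadjusted p under 0.05 and the direction kept in all 67 called named genes that could be fitted. Without AAV animal 7248 there were 258 and 130, and without 7249 411 and 189.

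**Figure D2:**
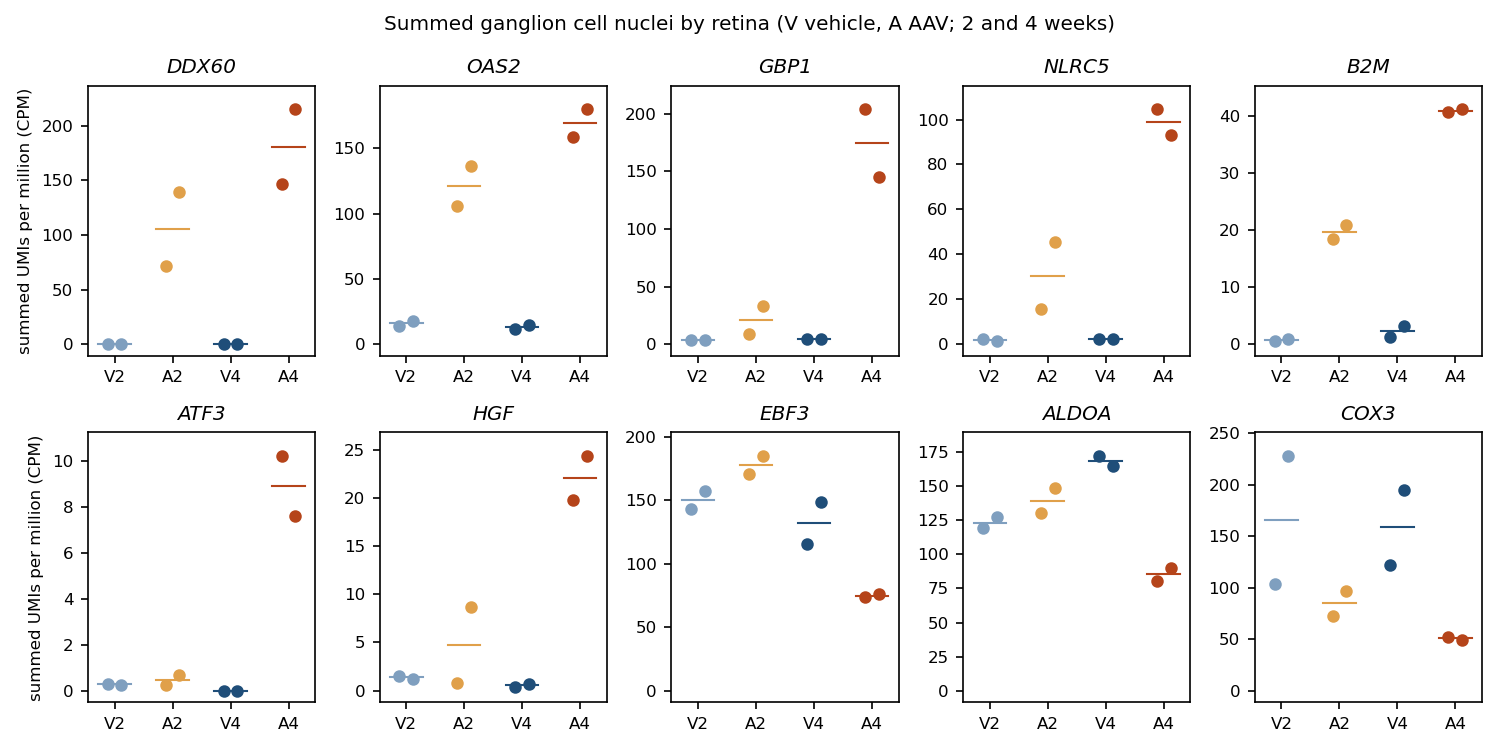
Summed UMIs in CPM in ganglion cell nuclei of each retina for 10 genes, with vehicle (V) and AAV (A) at 2 and 4 weeks, points for the 2 retinas of a group and bars for their mean. The 2 points at week 2 are eyes of 1 animal. DDX60 and OAS2 are high in all 4 AAV retinas, GBP1, NLRC5 and HGF are highest at week 4, ATF3 stands above 1 CPM in the week 4 AAV retinas alone, and EBF3 and ALDOA are lowest there.

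Of the ISG list, 48 genes were tested at week 4, and 38 were higher and 0 lower, against 1.47% higher among all genes. Of the 48, 7 had 0 UMIs in both vehicle retinas. These 7 passed the low-count filter through the AAV retinas alone and could only come out higher. The same holds for listed genes with few UMIs in both vehicle retinas, IFI6 and USP18 among them, which were not counted. The count of 38 thus leans in part on the filter. The median log2 fold change of the 48 was 4.00 (3.84 with genes at 0 in vehicle set to their bound), beside -0.005 over all genes tested. In 46 of the 48 both AAV retinas lay above both vehicle retinas, as did 18.1% of all genes. Without vehicle animal 7250 the count of 38 fell to 16, and without 7251 to 0, where 42 of 51 genes tested still had an unadjusted p under 0.05.

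DDX60, a helicase that aids the sensing of viral RNA, had 415 and 591 UMIs in the AAV animals 7248 and 7249 and 0 in both vehicle animals. It was at least 308-fold higher against a floor of 3 UMIs over the vehicle group (edgeR adjusted p = 1.07e-05). It was found in 74.0% and 78.0% of single RGC nuclei at week 4. At week 2 it had 286 and 401 UMIs in the AAV eyes and 0 and 1 in the vehicle eyes. The groups did not overlap at either time.

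The other sensors behaved alike in direction. IFIH1 (MDA5), a receptor of double-stranded RNA, had 109 and 139 UMIs after AAV and 0 in both vehicle animals at week 4, at least 76.0-fold higher (edgeR adjusted p = 7.94e-05). RIGI, the receptor of short double-stranded RNA ends, had 88 and 91 UMIs against 31 and 26, a log2 fold change of 1.57 (SE 0.24, edgeR adjusted p = 0.0101). EIF2AK2 (PKR), a kinase that halts translation on double-stranded RNA, had 717 and 651 UMIs against 136 and 158, a log2 fold change of 2.15 (SE 0.12, adjusted p = 1.71e-05). EIF2AK2 and RIGI were present in vehicle retinas, and IFIH1 was not detected there at week 4.

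Antiviral effectors spanned a wide range of fold changes. OAS2, which makes the second messenger that activates RNase L, had 449 and 495 UMIs against 28 and 42 (log2 fold change 3.69, SE 0.17, edgeR adjusted p = 5.01e-06). GBP1, an interferon-induced GTPase, had 577 and 399 against 11 and 12 (5.33, SE 0.27, adjusted p = 7.21e-06). IFI44L had 293 and 402 against 8 and 3 (5.88, SE 0.34, adjusted p = 1.71e-05). In all 3 the lower AAV animal stood more than 10 times above the higher vehicle animal.
MX1 and MX2, GTPases that block viral capsids, differed in their vehicle level: MX1 had 172 and 174 UMIs against 21 and 32 (log2 fold change 2.64, SE 0.20, adjusted p = 0.000132), and MX2 had 49 and 77 against 0 and 0, at least 38.6-fold higher. IFI6 had 85 and 172 UMIs against 1 and 1, a ratio of 118 (counting interval 32.4 to 981). ISG15, a ubiquitin-like protein, had 31 and 22 against 0 and 0 and was at least 16.2-fold higher, and UBA7, the enzyme that activates it, had 26 and 42 against 0 and 0 and was at least 20.8-fold higher. Its protease USP18, which also damps the interferon receptor, had 67 and 77 against 4 and 5 (log2 fold change 3.90).

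The 10 listed genes not called were ADAR, PLSCR1, IFIT1, GBP2, IFIT5, NMI, SHISA5, TRIM26, GBP5 and CMTR1. IFIT1, which binds viral RNA with foreign ends, had 29 and 42 UMIs against 15 and 5 (edgeR adjusted p = 0.139), and ADAR, an editor of double-stranded RNA, had an adjusted p of 0.0694. CXCL10, a chemokine that draws T cells, was called on few molecules: 11 and 11 UMIs in 5 and 7 nuclei of the AAV week 4 animals and 0 in the other 6 retinas, at least 6.74-fold higher at week 4 (adjusted p = 0.0246).

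**Figure D3:**
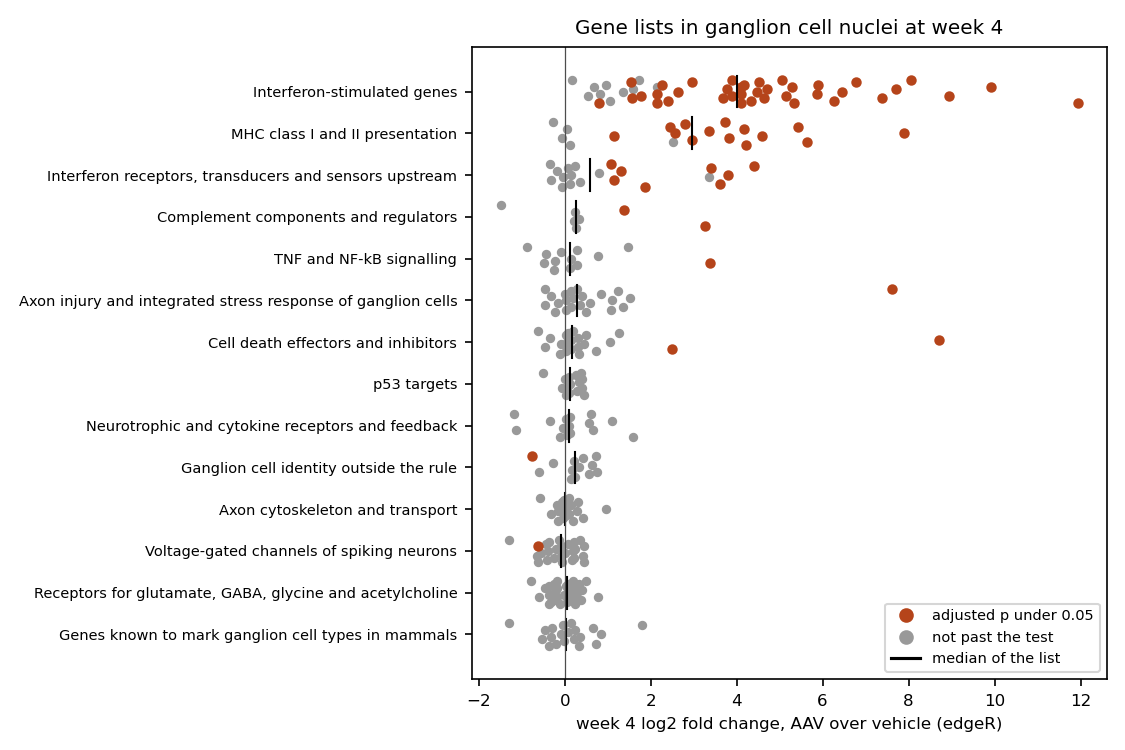
Week 4 log2 fold change (AAV over vehicle, edgeR) of each tested gene in 14 gene lists, with called genes in red, other genes in grey and the list median as a black bar. Interferon-stimulated and presentation genes lie far to the right of 0 with medians of 4.00 and 2.95, and the p53 target, trophic, axon, receptor and type lists centre near 0 with no called gene. Fitted values of genes at 0 in the vehicle group depend on a prior count.

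Interferon signalling genes were called in 8 of 20 tested cases, all higher, where 1.47% of all genes were higher. Their median log2 fold change was 0.58. IRF1 and IL10RB, with few UMIs in both vehicle retinas, passed the low-count filter through the AAV retinas alone and could only come out higher. Genes of this kind were not counted. IRF9 had 72 and 86 UMIs in the AAV week 4 animals against 8 and 6 (log2 fold change 3.41, SE 0.33, edgeR adjusted p = 0.000558), and STAT2 147 and 175 against 39 and 45 (1.87, SE 0.19, adjusted p = 0.000858). Both belong to the complex that acts below the type I interferon receptor, and the groups overlapped in neither.
IRF1, the factor induced by interferon gamma, had 60 and 59 UMIs against 5 and 4 (log2 fold change 3.62, SE 0.37, adjusted p = 0.000776). STAT3, which gp130 cytokines act through, had 321 and 304 against 122 and 116 (1.32, SE 0.15, adjusted p = 0.00188), and IRF2 389 and 360 against 167 and 173 (1.07, adjusted p = 0.00312). Of the receptors, IL10RB, the shared chain for IL-10 and interferon lambda, had 71 and 48 against 2 and 6 (3.80, SE 0.45, adjusted p = 0.00193), and the type I receptor chain IFNAR1 had 181 and 124 against 67 and 65 (1.14, SE 0.23, adjusted p = 0.0355). The second chain IFNAR2 (log2 fold change 0.80, adjusted p = 0.101) and the kinase JAK1 (0.07) did not pass the test. The interferon genes IFNB1, IFNA1 and IFNG had 0 UMIs in RGC nuclei of all 8 retinas. Without vehicle animal 7250 the count of 8 was 3, and without 7251 it was 0.

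Antigen presentation genes were higher in 14 of 19 tested cases, with a median log2 fold change of 2.95 and 0 lower. Among all genes 1.47% were higher and 0.45% lower. Of the 19, 1 had 0 UMIs in both vehicle retinas and could only come out higher. The same holds for genes with few vehicle UMIs that passed the low-count filter through the AAV retinas alone. NLRC5, TAP1, ERAP1 and CD74 were among these, and they were not counted. NLRC5, the transactivator of MHC class I genes, had 296 and 256 UMIs after AAV at week 4 against 5 and 7 (log2 fold change 5.43, SE 0.25, edgeR adjusted p = 5.01e-06). TAP1, which carries peptides into the endoplasmic reticulum, had 98 and 101 against 6 and 4 (4.21, SE 0.32, adjusted p = 0.000132), and beta-2-microglobulin (B2M) was at 40.6 and 41.1 CPM against 1.28 and 3.21 (4.16, SE 0.33, adjusted p = 0.000137). In these genes both AAV animals lay far above both vehicle animals.
PSMB8 and PSMB10, catalytic subunits of the immunoproteasome, had 35 and 25 UMIs against 0 and 0, at least 18.4-fold higher, and 70 and 49 against 4 and 7 (log2 fold change 3.35, SE 0.39, adjusted p = 0.00188). ERAP1, which trims peptides, had 62 and 51 against 3 and 5 (3.72, SE 0.39). CD74, the class II invariant chain, was at 19 and 19 against 3 and 2 (2.80, adjusted p = 0.028). HLA-DOB, a class II chain outside the list that was picked after its values were seen, had 20 and 18 against 4 and 1 (2.80, SE 0.59, adjusted p = 0.049), a call lost under DESeq2 and without the doublet-like members. CIITA, the class II transactivator, had 2 and 10 against 1 and 4 and was not tested. The checkpoint ligand CD274 (PD-L1) had 77 and 72 against 32 and 32 (1.15, SE 0.23, adjusted p = 0.0382), and was found in 40.7% and 35.8% of RGC nuclei against 22.9% and 17.2%. PDCD1LG2 (PD-L2), named after its values were seen, had 68 and 26 against 0 and 6 (3.86, SE 0.76, adjusted p = 0.0342). CALR, a chaperone of class I loading, did not pass the test (0.06). The count of 14 was 3 without vehicle animal 7250 and 0 without 7251, and 5 when each nucleus was thinned to 5000 UMIs.

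Immune cells also use many of these genes, and their markers moved with the groups at low levels at week 4. The 11 microglia markers summed to 19.6 to 20.1 CPM in AAV week 4 members against 12.5 to 14.1 in vehicle. The 13 lymphocyte markers summed to 25.4 to 34.5 against 10.4 to 14.99, with CD8A, GZMB and CD79B at 0 in all retinas. At week 2 the microglia sums overlapped, at 16.2 and 12.5 CPM in the AAV eyes against 13.4 and 15.2. The lymphocyte sums also overlapped then, at 10.2 and 15.6 against 14.4 and 10.8. In each list 1 gene could be tested at week 4, and neither was called. Without the 126 doublet-like members, 214 genes were higher and 72 lower at week 4, and 36 ISGs and 15 presentation genes were called. Of the 126, only 6 met the immune limit, so leaving them out cannot show the part of immune RNA.

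Single nuclei were compared after thinning each to 5000 UMIs and summing the UMIs of the 48 tested ISGs. The 48 include the 7 with 0 UMIs in both vehicle week 4 retinas, which can add UMIs at week 4 only after AAV. The median per nucleus was 6 and 6 in the AAV week 2 eyes and 9 and 11 in the AAV week 4 animals, and 2 in each of the 4 vehicle retinas. At least 10 ISG UMIs were seen in 22.0% and 32.5% of nuclei at week 2 and 46.3% and 55.3% at week 4, and in 0 vehicle nuclei, which allows up to 1.54% to 2.86% by retina. The nuclei with 0 ISG UMIs made up 12.3% to 22.9% in vehicle retinas, 1.19% and 1.67% at week 2 and 0 of 123 in each week 4 animal after AAV, which allows a share of up to 2.44%. At week 4 the 10th percentile after AAV (3.2 and 4.2 UMIs) lay above the vehicle median. These are UMIs per droplet, which also takes up free RNA. At full depth JCHAIN, a gene of plasma cells, was found in 29.3% and 39.0% of the members of the AAV week 4 animals against 18.1% and 11.2%. At week 2 it was found in 13.7% and 15.8% of members against 14.9% and 12.8%. IGHM, an immunoglobulin chain, was found at week 4 in 7.32% and 8.94% against 0 (which allows up to 2.86%) and 0.746%. It had 0 UMIs in the members of the week 2 retinas. The source of the JCHAIN UMIs was not tested. The part of free RNA in the ISG and EGFP shares of single nuclei was not tested. Between EGFP-positive and EGFP-negative nuclei of the same retina the medians were 6 and 6.5, 7 and 5, 9.5 and 8, and 11 and 11.

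**Figure D4:**
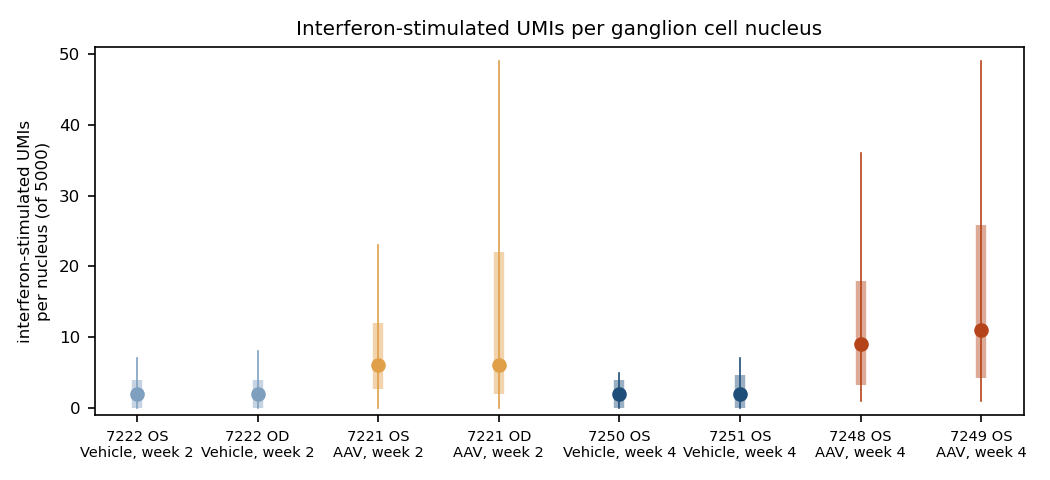
Interferon-stimulated UMIs per ganglion cell nucleus, each nucleus thinned to 5000 UMIs, in the 8 retinas. Points are medians, thick bars the 10th to 90th percentile and thin lines the full range. Vehicle retinas have a median of 2 and no nucleus above 8, and AAV retinas have medians of 6 to 11 and nuclei of up to 49.

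Of 23 tested genes of axon injury and integrated stress, 1 was called, ATF3, where 1.47% of all genes were higher, and the list's median log2 fold change was 0.28. At 0 UMIs in both vehicle retinas, ATF3 passed the low-count filter through the AAV retinas alone and could only come out higher. ATF3, a transcription factor known from injured RGCs, had 29 and 21 UMIs in the AAV week 4 animals, 0 in both vehicle animals, and 1 or 2 in each week 2 retina. It was at least 15.3-fold higher at week 4 (edgeR adjusted p = 0.00501), but its UMIs came from 8 nuclei in each animal (6.5% each), and 1 nucleus held 10 of the 29. The stress sensor SESN2 had 45 and 30 UMIs against 8 and 17 (log2 fold change 1.52, adjusted p = 0.101) and JUN, a partner of ATF3, 16 and 11 against 3 and 7 (1.35, adjusted p = 0.271). ATF4, GAP43 and KLF6 also missed the threshold, with log2 fold changes of -0.33, 0.20 and 0.28.
None of 15 tested p53 targets was called, with a median of 0.13 beside -0.005 over all genes. Of the 15, 13 had a log2 fold change above 0. In 5 both AAV retinas lay above both vehicle retinas and in 1 below, as did 18.1% and 27.8% of all genes. A small shift of the list as a whole was not tested. CDKN1A, the cell cycle inhibitor p21, had 1 and 4 UMIs in the AAV week 4 animals and 0 in the other 6 retinas, too few to test. MDM2, the p53 ligase, had a log2 fold change of 0.40 (adjusted p = 0.355).
Of 22 cell death genes 2 were called, both higher, beside the same 1.47%. Of these, ZBP1 passed the low-count filter through the AAV retinas alone and could only come out higher. ZBP1, a sensor of Z-form nucleic acid that can start necroptosis, had 42 and 64 UMIs against 0 and 0, at least 32.5-fold higher (adjusted p = 0.00115). CFLAR (c-FLIP), an inhibitor of caspase-8, had 55 and 40 against 6 and 10 (log2 fold change 2.49, SE 0.37, adjusted p = 0.00831). The kinase RIPK1 had 205 and 236 against 104 and 151 (0.73, adjusted p = 0.0517).

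Among complement and cytokine genes 2 of 7 and 1 of 13 were called higher, where 1.47% of all genes were. C1S and CSF1 passed the low-count filter through the AAV retinas alone and could only come out higher. Of the complement genes SERPING1, the C1 inhibitor, was at 65 and 75 UMIs against 23 and 28 (log2 fold change 1.39, SE 0.24, edgeR adjusted p = 0.0212), and C1S, a C1 protease, at 11 and 21 against 1 and 2, a ratio of 9.81 (counting interval 3.07 to 50.1). Of the TNF and NF-kB genes the macrophage growth factor CSF1 was called, with 17 and 18 against 1 and 2, a ratio of 10.7 (3.38 to 54.5). Of 15 trophic genes 0 were called, with OSMR, the oncostatin M receptor, at 35 and 25 against 7 and 12 (1.59, adjusted p = 0.0885) and IL6ST, the gp130 chain, at 0.62 (adjusted p = 0.0906). The BDNF receptor NTRK2 differed by -0.04.

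Several called genes outside the lists were picked after their values were seen. HGF, hepatocyte growth factor, had 56 and 67 UMIs in the AAV week 4 animals against 1 and 2, a ratio of 37.7 (counting interval 12.6 to 185; edgeR adjusted p = 0.000302), and was found in 23.6% and 28.5% of RGC nuclei against 0.952% and 1.49%. The interleukin-1 receptor IL1R1 had 69 and 80 against 12 and 18 (log2 fold change 2.24, SE 0.28, adjusted p = 0.00259). ARG1, arginase, had 36 and 19 against 3 and 3 (3.08, SE 0.55, adjusted p = 0.0223), but 1 nucleus held 30 of the 36 and 1 other 13 of the 19, and ARG1 was found in 4.07% and 1.63% of RGC nuclei against 1.90% and 2.24%. At week 2 these 3 were not called, with HGF at 3 and 25 UMIs against 5 and 5.
SAT1, a polyamine acetyltransferase, had 193 and 221 UMIs against 64 and 46 (log2 fold change 1.83, SE 0.23, adjusted p = 0.00261). FOXS1, a forkhead factor, had 78 and 53 against 0 and 1, a ratio of 120.5 (21.2 to 4794), and was already at 42 and 99 against 0 and 1 at week 2. The melatonin receptor MTNR1B was at 17 and 13 against 0 and 0 (at least 9.20-fold higher).

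Of 13 tested genes of RGC identity outside the gate 1 was called, where 1.47% of all genes were higher and 0.45% lower. EBF3, a factor of the same family as EBF1, was lower, with 209 and 209 UMIs against 270 and 416 at week 4 (fell by 0.77 on the log2 scale, SE 0.15, edgeR adjusted p = 0.0307), and was found in 51.2% and 60.2% of nuclei against 76.2% and 73.9%. At week 2 EBF3 stood at 686 and 533 UMIs against 460 and 655. As a share of the summed UMIs both AAV eyes then lay above both vehicle eyes, opposite to week 4. Over 6 animals its edgeR adjusted p was 0.538. EBF1 (0.25), ELAVL4 (0.15) and NRN1, a neuritin (0.21), were not called. None of the 19 axon cytoskeleton and transport genes was called (median 0.00), and none of 35 transmitter receptors (median 0.05).
Among the voltage-gated channel genes, the potassium channel KCNQ3 had 674 and 640 UMIs against 750 and 931 (log2 fold change -0.42, edgeR adjusted p = 0.0906) and the sodium channel SCN2A a log2 fold change of 0.21, and neither passed the test. Some called genes of neuronal function were picked after their values were seen. Lower were complexin CPLX1 (-1.39), the potassium channel KCNN1 (-1.47) and the AMPA receptor auxiliary subunit CACNG3 (-0.77). SLIT3 (-0.83), an axon guidance ligand, and EPHA3 (-0.79), an ephrin receptor, were also lower. Others were called higher, among them EPHA4, another ephrin receptor, and the adhesion gene NCAM2. Genes of this kind were not counted in either direction.

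Among the largest decreases, RGR, an opsin of Müller glia and pigment epithelium, had 0 UMIs in both AAV week 4 animals and 10 and 11 in the vehicle animals, at least 7.61-fold lower against a floor of 3 UMIs over the group, and PDE6G, a rod phosphodiesterase subunit, 19 and 12 against 36 and 80 (fell by 1.94 on the log2 scale, SE 0.38, edgeR adjusted p = 0.0349), where 1 vehicle nucleus held 45 of the 80. Both are genes of other cells. Over those cells' marker lists, Müller markers summed to 91.6 to 113.3 CPM in the AAV week 4 members against 132 to 146 in vehicle, amacrine markers to 25.4 to 38.2 against 52.1 to 62.5 with SLC18A3 at 0, vascular markers to 23.3 to 32.1 against 49.3 to 54.3 and rod markers to 198 to 284 against 284 to 337. Horizontal cell markers lay the other way, at 70.9 to 92.7 CPM against 50.97 to 58.2 at week 4 and 99.5 to 138 against 52.5 to 57.6 at week 2, with LHX1 at 0 by the gate. The cone, bipolar, astrocyte and oligodendrocyte sums overlapped between the groups at week 4.
What part RNA from other cells has in these 2 differences was not tested. Of the other 9 marker lists of cell types 0 genes were called. DNAH11, an axonemal dynein that here was found in a subset of RGC nuclei, had 64 and 106 UMIs against 275 and 238 (fell by 1.67, SE 0.24, adjusted p = 0.00664), NXPH2, a neurexin ligand, 16 and 19 against 50 and 71 (fell by 1.84, SE 0.28, adjusted p = 0.00925), of which 1 nucleus in each vehicle animal held 29 and 22, MINAR1 5 and 2 against 15 and 23 (fell by 2.46) and GSG1L, an AMPA receptor auxiliary subunit, 9 and 9 against 31 and 30 (fell by 1.82).

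Mitochondrial transcripts were a smaller part of the members' UMIs after AAV. They made up 0.0326% and 0.0323% of the members' UMIs in the AAV week 4 animals against 0.0709% and 0.117% in vehicle, and 0.0403% and 0.0463% against 0.0615% and 0.138% at week 2. Of 11 tested mitochondrial genes 9 were lower at week 4 with a median log2 fold change of -1.51, among them COX3, a subunit of cytochrome oxidase, with 149 and 136 UMIs against 285 and 547 (fell by 1.58, SE 0.21, edgeR adjusted p = 0.00403), CYTB (-1.76), ND5 (-1.70) and ATP6 (-1.62). In vehicle animal 7250, 1 nucleus held 39.4% of the ND4 UMIs and 1 held 44.2% of those of ND2. Among all genes tested in RGC nuclei 0.45% were lower. In amacrine and ON bipolar nuclei of the same retinas 9 of 13 mitochondrial genes were lower in each, where 1.05% and 0.639% of all genes were. These RNAs are made in mitochondria and not in the nucleus, and the part of carry-over in the difference was not tested.

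Of the genes called lower at week 4, 7 that encode glycolytic enzymes were picked after their values were seen, with no count of the glycolytic genes tested. GAPDH had 134 and 98 UMIs against 216 and 296 (fell by 1.2 on the log2 scale, SE 0.17, edgeR adjusted p = 0.0073). GPI, the enzyme after hexokinase, had 835 and 766 against 1149 and 1470 (fell by 0.77, SE 0.11, adjusted p = 0.00511), and ALDOA, an aldolase, 229 and 247 against 402 and 461 (fell by 0.93, SE 0.12, adjusted p = 0.00359). LDHA, which makes lactate, had 33 and 29 against 72 and 76 (fell by 1.32, adjusted p = 0.0214).
ALDOC, PGAM1 and TPI1 were also called at week 4, at log2 fold changes of -0.90, -0.89 and -1.00. At week 2 the log2 ratios of these 7 genes lay from -0.41 (PGAM1) to 0.40 (TPI1), and none was called over 6 animals. The test of the change between weeks did not pass for ALDOA (adjusted p = 0.146), GAPDH (0.153) or LDHA (0.176).

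At week 2, with 1 animal per arm and no test, 592 of 16354 genes (3.62%) were more than 2-fold higher in the sum of both eyes with both AAV eyes above both vehicle eyes, and 231 (1.41%) were lower in the same sense. Of 44 ISGs 38 were called higher by this rule, with a median log2 ratio of 2.91 beside 0.08 over all genes, against 6 of 21 interferon signalling genes, 9 of 17 presentation genes, 4 of 23 cell death genes and 0 of 17 p53 targets. Genes near 0 in the vehicle eyes, DDX60, ISG15 and ZBP1 among them, reached the minimum of 20 UMIs through the AAV eyes alone. Such genes could only come out higher and were not counted. OAS2 had 424 and 393 UMIs in the AAV eyes against 44 and 75, and ISG15 60 and 72 against 1 and 3. GBP1 stood at 37 and 95 against 12 and 16, IRF1 at 8 and 19 against 4 and 4, and PSMB10 at 9 and 12 against 7 and 9, nearer to the vehicle eyes than at week 4.

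The change between the weeks was tested over 6 animals as an interaction of week and treatment, which shares its week 4 animals with the fit above. edgeR called 5 of 14779 genes (0.0338%) as having a higher AAV over vehicle ratio at week 4 than at week 2 and 0 (0%) a lower one, with 1258 at an unadjusted p under 0.05, and DESeq2 called 8 and 1. None of the 51 tested ISGs was among the 5: GBP1 had the smallest p of them, with an interaction of 3.07 on the log2 scale (adjusted p = 0.0876). Without either AAV week 4 animal the count was 24 or 25 higher, and without either vehicle week 4 animal 0. A difference between weeks in the interferon genes was thus not shown. In the fit over 6 animals with a term for week, 115 of 13160 genes were higher (0.874%) and 25 lower (0.19%), of which 33 of 42 tested ISGs, 7 of 19 interferon signalling genes and 8 of 13 presentation genes were higher. Without AAV animal 7221 or vehicle animal 7222, the counts were 196 and 63 or 200 and 62.

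Whether RGC nuclei answered more or less than other neurons was tested with retina as a block. Against amacrine nuclei, 52 of 17917 genes (0.29%) had a larger and 33 (0.184%) a smaller week 4 log2 difference in RGC nuclei. Of 52 tested ISGs 1 was larger, GBP1, and 2 were smaller, RIGI and IFIT1. RIGI stood at 31.1 and 33.1 CPM in RGC nuclei after AAV and 13.3 and 9.3 after vehicle, and at 57.1 and 87.1 against 3.5 and 3.6 in amacrine nuclei, a difference of the log2 changes of -2.70 (edgeR adjusted p = 0.00133). The list's median difference was -0.06. In amacrine nuclei alone 50 of 53 ISGs were called higher, where 2.69% of all genes were higher and 1.05% lower. In ON bipolar nuclei alone 39 of 51 were called higher, where 1.02% of all genes were higher and 0.639% lower.
Against ON bipolar nuclei 120 of 15569 genes (0.771%) had a larger and 15 (0.0963%) a smaller difference, and of 50 ISGs OAS2 and GBP1 were larger. IL10RB differed from amacrine nuclei (2.92, adjusted p = 0.0122), as did HGF (4.25, adjusted p = 0.00534), and PSMB10 (2.54, adjusted p = 0.0364) and IL1R1 (2.67, adjusted p = 0.00775) from ON bipolar nuclei. IL10RB and PSMB10 were lone calls of their lists. Against amacrine nuclei 1 of 24 interferon signalling and 0 of 22 presentation genes were larger (list medians 0.02 and 0.10). Against ON bipolar nuclei 1 of 21 was larger in each list. In both comparisons 0 were smaller. The log2 change of EBF3 in RGC nuclei minus that in amacrine nuclei was -1.46 (adjusted p = 0.0197). Leaving out 1 animal moved these counts: against amacrine nuclei to 182 and 128 without 7248, 83 and 66 without 7249 and 114 and 80 without 7250, and against ON bipolar nuclei to 398 and 62, 204 and 75, 75 and 9, and, without 7251, 36 and 3.

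RGC types differ in dendrites, responses and targets and are known mainly from mouse and primate markers. Members were thinned to 5000 UMIs, and those with at least 2 UMIs of a type gene were counted. FSTL4 (SPIG1), known from direction-selective RGCs of the mouse, passed in 59.2% of members (656), and the transcription factor FOXP1 in 52.7% (584). MEIS2 passed in 28.9%, MEIS1 in 21.7%, SATB1 in 16.6%, COL25A1 in 16.4%, BNC2 in 12.5%, CALB2 (calretinin) in 11.6%, JAM2 in 10.6%, CDH6 in 7.75% and FOXP2 in 7.21%. Genes of the intrinsically photosensitive type passed in few: OPN4 (melanopsin) in 1 member, EOMES in 0 (which allows up to 0.271% of members) and TBX20 in 4, and TBR1 in 2. At full depth, at least 1 UMI was seen in 23 members for OPN4, 29 for EOMES, 14 for TBX20 and 82 for TBR1. At this depth a low nuclear level and an absent type cannot be told apart.

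**Figure D5:**
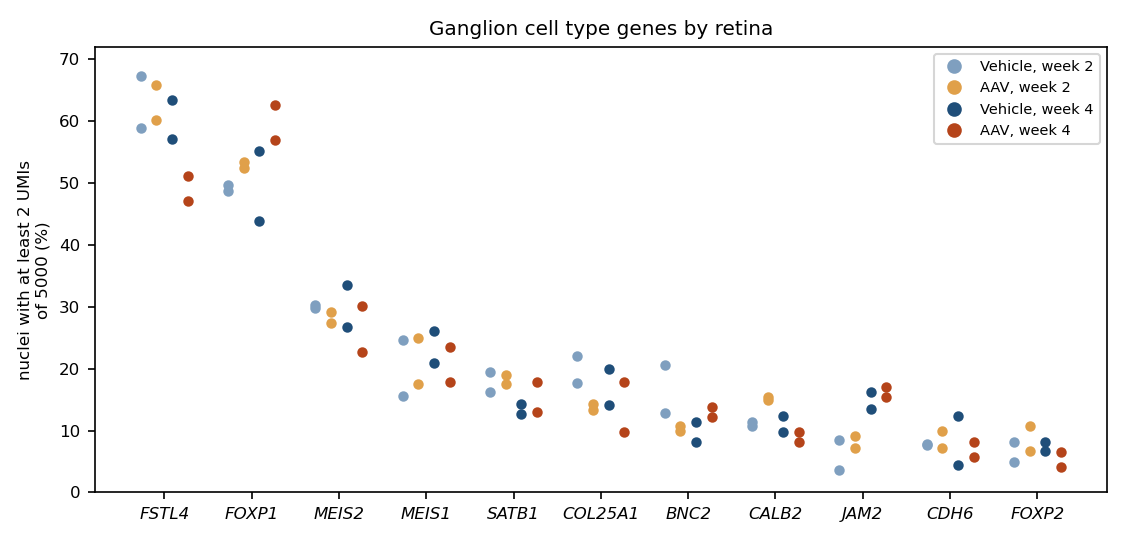
Percent of ganglion cell nuclei with at least 2 UMIs (of 5000) of each of 11 type genes, with 1 point per retina coloured by group. The points of the 4 groups interleave for most genes. FSTL4 lies between 47.2% and 67.4% and JAM2 between 3.59% and 17.1%.

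These gates overlapped unevenly. FOXP2-positive nuclei were FOXP1-positive in 68.8% of cases against 51.4% of the others, higher in 8 of 8 retinas, and COL25A1-positive in 3.75% against 17.4%, higher in 0 of 8. COL25A1 passed in 29.9% of JAM2-positive nuclei and 14.8% of the others, higher in 8 of 8 retinas, and BNC2 in 25.6% against 10.99%, higher in 7 of 8. The 80 FOXP2-positive nuclei were marked by several genes: GULP1, an engulfment adaptor, was at 4.18 UMIs per nucleus against 0.217 in other members, the neuregulin receptor ERBB4 at 1.94 against 0.121 and the sulfotransferase HS3ST4 at 3.66 against 0.592. These 3, and the genes named next for other gates, were picked from genes that lay the same way in all 8 retinas. Their agreement over retinas was thus fixed by the choice and is no support.
JAM2-positive nuclei were higher in the potassium channel KCNJ3 (median log2 ratio over retinas 1.47) and TMEM26 (1.40), and CALB2-positive nuclei in the transcription factor SOX6 (1.52), which was lower in the JAM2 gate (-1.76). DNAH11, lower after AAV at week 4, was higher in COL25A1-positive nuclei (1.91) and lower in FOXP2-positive ones (-3.42).

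For the 12 type genes found in at least 5% of members, no difference in share between AAV and vehicle animals at week 4 passed the test, with adjusted p-values from 0.8 to 1 over exact permutation tests that cannot go below 0.33 unadjusted. The groups did not overlap in 4 of the 12, beside 18.1% of all genes tested with both AAV retinas above and 27.8% with both below the vehicle retinas in CPM, so the count sets these genes apart in no way. FSTL4 was at 47.2% and 51.2% after AAV against 57.1% and 63.4%, FOXP1 at 62.6% and 56.9% against 43.8% and 55.2%, FOXP2 at 4.07% and 6.5% against 6.67% and 8.21%, and BNC2 at 12.2% and 13.8% against 11.4% and 8.21%. At week 2 FSTL4 and FOXP2 overlapped between the eyes, FOXP1 lay the same way as at week 4 (52.4% and 53.3% against 49.6% and 48.7%), and BNC2 lay the other way (10.7% and 10.0% against 20.6% and 12.8%). JAM2 was at 13.4% to 17.1% in the 4 week 4 retinas and 3.59% to 9.17% in the 4 week 2 retinas, with no separation by vector.

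Median ISG UMIs were compared between gates within AAV retinas. FOXP1-positive nuclei had median ISG UMIs of 10 and 11.5 at week 4 against 7.5 and 9 in other members, and of 7 and 6 at week 2 against 5 and 7.5, and JAM2-positive nuclei 8 and 10 at week 4 against 9 and 11. EGFP was found more often in FSTL4-positive than in other nuclei of each AAV retina, in 63.4% against 56.7% and 89.9% against 65.9% at week 2, and in 53.4% against 35.4% and 69.8% against 33.3% at week 4. The same direction in all 4 AAV retinas was seen for MEIS2, with smaller gaps (48.6% against 41.9% and 57.1% against 50.5% at week 4). BNC2-positive nuclei had the larger gaps at week 4 (73.3% against 39.8% and 88.2% against 46.2%) and lay the other way in 1 week 2 eye (66.7% against 83.3%). These 3 gates were picked after their values were seen. The EGFP shares are at full depth, and the depth of the 2 sets was not matched.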

How the data were processed

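Per the labels and the study's methods, the authors aligned reads to the pig genome (Sscrofa11.1) with EGFP added, using Cell Ranger 8.0.0, and deposited raw UMI counts per gene and barcode for each of 4 lanes per retina. The authors' own mitochondrial filter and clusters were not used here. The gate on RGC nuclei, the gene lists and the comparisons were chosen with earlier results of these data known.

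Counts were summed over members per retina and tested at week 4 with edgeR 4.0.16 (R 4.3.3, trimmed-mean scaling, filterByExpr, quasi-likelihood, Benjamini-Hochberg adjustment over all genes tested, threshold 0.05). At week 2 a gene was called above 2-fold in the CPM of both eyes summed, with no overlap of eyes and at least 20 UMIs. Fits over 6 animals summed the 2 eyes of a week 2 animal. Class differences used retina as a block. DESeq2 1.42.0 and other gates, filters and scalings were alternatives. On simulated counts for the week 4 comparison (13281 genes), 60.0% of 200 genes changed 2-fold were recovered, and among 13273 genes 90.5% of those changed 4-fold. For the difference from amacrine nuclei (17853 genes) 35.5% of 2-fold changes were recovered, where the direction was not checked. In these simulations all genes had the same spread between retinas, taken from the RGC nuclei. The classes of a retina shared no effect. Recovery in the data may therefore be lower, which was not tested.

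Named genes were the genes of the gate, EGFP, list genes by smallest adjusted p without overlap of retinas or by role, and the 10 genes with a symbol with the largest increase and decrease; others are said to be picked after their values were seen. Results for some named genes are not reported here. THY1, NEFM and NEFH were not used here, and the limit for Müller doublets used RLBP1 alone. Without a statement on strand, overlapping and antisense genes cannot be told apart, and paralogues such as the GBP and IFIT genes may share reads. Intervals and floors (3 counts) cover counting error only. Promoter windows were from RefSeq Sscrofa11.1.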

Additional observations from a re-analysis of the deposited data

Results flagged for a closer look

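The AAV against vehicle difference changed between week 2 and week 4 for 5 genes by the edgeR interaction over 6 animals, where week 2 rests on 1 animal per arm. SYCP1, a synaptonemal complex gene, had 7 and 5 UMIs in the AAV eyes and 72 and 91 in the vehicle eyes at week 2, and 82 and 87 against 5 and 24 at week 4, an interaction of 6.19 on the log2 scale (adjusted p = 0.00651). TOPAZ1, another germline gene, had 173 and 153 against 500 and 563 at week 2 and 260 and 278 against 159 and 132 at week 4 (2.47). The sign of both differences turned between the weeks. The remaining 3 have no symbol in the files: ENSSSCG00000038570 (4.49) and ENSSSCG00000063471 (1.95), which were also lower in the AAV eyes at week 2 and higher in the AAV animals at week 4, and ENSSSCG00000033089 (2.81), which was higher at both.

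The 10 genes with a symbol and the smallest adjusted p for a week 4 difference in RGC nuclei that departed from that in amacrine nuclei are given here. KHDRBS2, a splicing regulator, had 499 and 388 CPM in RGC nuclei after AAV against 247 and 185, while amacrine nuclei had 651 and 535 against 744 and 599 (difference of log2 changes 1.30). The glypican GPC5 had 157 and 152 CPM against 91.7 and 85.3 in RGC nuclei, and 505 and 369 against 668 and 744 in amacrine nuclei (1.60), but 1 nucleus held 166 of its 445 UMIs in animal 7248 and 1 held 177 of 419 in 7249. ABCA6 (2.67), the heparan sulfate proteoglycan SDC2 (1.61) and EBF4 (1.33) also had larger differences in RGC nuclei. NXPH2 (-2.17), RIGI (-2.70), ZNF804B (-0.99), the potassium channel KCND2 (-1.00) and the kainate receptor GRIK1 (-1.39) had smaller ones.

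Against ON bipolar nuclei the difference in RGC nuclei was larger for ASTN2 (2.53), GPC5 (2.23), ABCA6 (3.74), ABCA8 (3.44), GLRA2 (2.95), TMEM163 (2.48), ADAMTS18 (2.69) and TIAM1 (1.61), and smaller for ARHGAP15 (-2.60). ABCA6 fell in bipolar nuclei from 30.1 and 35.9 CPM in vehicle to 5.4 and 2.7 after AAV, and had 39.5 and 43.98 against 34.7 and 20.7 CPM in RGC nuclei. TMEM163 was not called in RGC nuclei themselves (log2 fold change 0.10).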

How the results depend on the processing

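Counts of calls moved with the setting. With no filter on low counts, 59 genes were higher and 1 lower at week 4 (22 interferon-stimulated, 8 presentation), and with nuclei thinned to 5000 UMIs 118 were higher (24 and 5). DESeq2 gave 35 lower. The fit over 6 animals gave 115 and 25, with 8 presentation genes. Leaving out 1 animal gave 0 to 411 higher, 0 to 189 lower, 0 to 40 interferon-stimulated, 0 to 13 presentation and 0 to 10 signalling genes. It gave 87 to 200 higher and 14 to 63 lower over 6 animals, 0 to 25 higher and 0 to 20 lower for week by treatment (DESeq2 8 and 1), 56 to 182 and 44 to 128 against amacrine nuclei and 36 to 398 and 3 to 75 against ON bipolar nuclei. The lone animal left in an arm is then assumed to vary like the other arm. At week 2, a 3-fold limit left 179 higher and 66 lower, and a minimum of 50 UMIs 234 and 90. EGFP in at least 2 UMIs was found in 39.3% and 69.2% of members at week 2 and 29.3% and 35.0% at week 4, and after thinning in 29.8%, 51.7%, 22.8% and 27.6%.

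The week 4 log2 change turned for BAX after thinning (-0.0566), P2RY12 without doublet-like members (-0.0460) and DKK3 without AAV animal 7249 (-0.319 to 0.00475 when 1 animal was left out), none of them called. No called named gene changed sign in 906 alternative values, 242 of which lost the call, 67 of these without vehicle animal 7251. Called named genes were mostly chosen without overlap of the groups, which largely fixed their sign in advance. The AAV minus vehicle share of type genes changed sign, in points, for JAM2 (at least 1 UMI -2.17, unthinned -2.14), COL25A1 (0.0603 and 0.901), SATB1 (unthinned -4.64), CDH6 (at least 1 UMI 5.22, unthinned 3.10) and MEIS1 (unthinned 1.54). With 1 animal left out it ran from -7.33 to 0.797 for COL25A1 (turned without 7248), -0.478 to 4.40 for SATB1 and -5.65 to 0.0413 for MEIS1 (turned without 7249), and -5.47 to 2.43 for CDH6 (turned without vehicle animal 7250). The member share difference ran from -1.52 to -0.511 when 1 animal was left out. The cause of these shifts was not tested. No paired analysis was possible because the replicate numbers follow accession order and name different animals in each arm.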
